A study of Mus musculus with 2 samples.

Results

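The subject is a set of 10 RNA-binding proteins that shape splicing in striated muscle: Rbm20, Rbm24, Rbfox1, Rbfox2, Celf1, Celf2, Mbnl1, Mbnl2, Ptbp1 and Qk. The genes were taken by symbol from the transcript identifiers of the deposited tables. All 10 were found, with 130 annotated transcripts, among 55536 genes. The study sequenced total RNA from heart tissue of female B6CASTF1/J mice aged 25 days, a cross of C57BL/6 with CAST mice obtained from The Jackson Laboratory, with no treatment, knockout or transgene in the labels. From 300 ng of RNA with ERCC spike-ins, 2 libraries were made, replicate 1 and replicate 2. They carry separate animal numbers but 1 donor label, and were taken as 2 animals, so the group is heart with n = 2 and the design holds no contrast between conditions. Each value below is therefore a level or a share, with its spread over the animals, and no p-value is given.

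Splicing regulators bind short motifs in pre-messenger RNA and raise or lower the use of nearby exons. RBFOX proteins read GCAUG, MBNL and CELF proteins act in opposite directions on many exons that change as the heart matures after birth, and RBM20 holds back exons of titin and of calcium-handling genes. RBM24 favours muscle exons, PTBP1 is best known for repressing exons outside muscle and brain, and quaking, the product of Qk, reads ACUAA-type motifs and acts in muscle as well as in myelinating cells. Many of these genes also splice their own transcripts, and the exons they alternate change where the protein resides or how it binds.

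The results turn on a few short exons that these genes include or skip. The exons come from GENCODE M21 transcripts on mm10, are written 5′ to 3′ in the direction of the gene, and code for protein at least in part. In each pair from 2 related genes, capitals mark the positions where the paralogs differ.
Rbfox1 40-base exon, chr16:7363865-7363904, plus strand: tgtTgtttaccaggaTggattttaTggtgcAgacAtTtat
Rbfox2 40-base exon, chr15:77094451-77094490, minus strand: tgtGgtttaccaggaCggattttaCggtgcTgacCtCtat
Rbfox1 43-base exon, chr16:7369801-7369843, plus strand: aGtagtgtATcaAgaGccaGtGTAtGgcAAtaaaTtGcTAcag
Rbfox2 43-base exon, chr15:77091812-77091854, minus strand: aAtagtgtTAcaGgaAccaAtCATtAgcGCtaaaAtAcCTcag
Mbnl1 54-base exon, chr3:60614683-60614736, plus strand: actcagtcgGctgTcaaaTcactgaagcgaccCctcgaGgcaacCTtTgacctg
Mbnl2 54-base exon, chr14:120395712-120395765, plus strand: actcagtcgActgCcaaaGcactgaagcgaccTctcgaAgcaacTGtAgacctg
Mbnl1 36-base exon, chr3:60621423-60621458, plus strand: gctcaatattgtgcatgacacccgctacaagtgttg
Ptbp1 34-base exon, chr10:79862014-79862047, plus strand: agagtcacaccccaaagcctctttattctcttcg
Ptbp1 78-base exon, chr10:79860117-79860194, plus strand: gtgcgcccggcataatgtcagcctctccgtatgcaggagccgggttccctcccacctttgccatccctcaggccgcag
The 40-base exons of Rbfox1 and Rbfox2 differ at 6 positions (85% identical), and their 43-base exons at 16 (62.8% identical). The 54-base exons of Mbnl1 and Mbnl2 differ at 8 positions (85.2% identical).

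The libraries held 43190646 and 42954475 expected counts, so each of the 10 genes rested on at least 1000 counts per animal. All 5 cardiomyocyte markers were detected, with summed levels of 29147 and 30337 TPM (a deposited level, corrected for transcript length and scaled to a fixed total per library), and none of 4 fast skeletal muscle markers reached the detection level of 1 TPM in both animals. None of 5 neuron markers, 4 T cell markers or 3 B cell markers was detected, and 1 of 4 Schwann cell markers was. Smooth muscle (4 of 4 detected, summed 184 and 134 TPM), fibroblast (3 of 3, 259 and 224), endothelial (3 of 3, 147 and 122) and macrophage markers (3 of 3, 20.7 and 17.9) were present, as were erythroid markers (2 of 2, 3894 and 3935), so the levels below are those of a tissue of several cell types. Liver markers summed to 0.17 TPM in replicate 1 and 19.5 in replicate 2. In such bulk samples, fewer cells of a type and less RNA per cell cannot be told apart.

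All 10 regulators were detected and all lay above the median of the detected protein-coding genes. Their median was 58.0 ± 3.23 TPM (SD, n = 2), against 8.83 TPM over 10972 detected nuclear coding genes. Qk was the most abundant. Rbfox1 had the lowest mean, although Ptbp1 was below it in replicate 2 (16.6 against 17.8 TPM). The values that follow are the alignment-based TPM, computed by the authors from reads aligned to the transcriptome; the read-based tables, a separate deposited quantification, are named where they are used.

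Qk encodes quaking, a regulator of splicing and of RNA stability, and lies at chr17:10202601-10319854 on the minus strand. It stood at 172 TPM in replicate 1 and 174 in replicate 2, a mean of 173 ± 1.44. It held rank 316 among the detected coding genes. Both animals lay well above every other gene of the set.

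Rbm20, the titin splicing repressor known from inherited dilated cardiomyopathy, lies at chr19:53677306-53867080 on the plus strand. Its level was 87.4 TPM in replicate 1 and 93.7 in replicate 2, a mean of 90.5 ± 4.48. Rbm24, an RNA-binding protein of heart and skeletal muscle that favours inclusion of muscle exons, spans only 12.7 kb at chr13:46418434-46431095. Its level was 77.7 TPM in replicate 1 and 66.4 in replicate 2, a mean of 72.1 ± 8.00. The animals of Rbm20 and Rbm24 did not overlap, with Rbm20 1.26-fold above Rbm24 on average.

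Mbnl1 and Mbnl2 encode muscleblind proteins, which favour adult splice forms and are trapped by repeat RNA in myotonic dystrophy. Mbnl2 (chr14:120275669-120431697, plus strand) had 97.1 TPM in replicate 1 and 82.7 in replicate 2, a mean of 89.9 ± 10.2. Mbnl1 (chr3:60472830-60629750, plus strand) had 75.7 TPM in replicate 1 and 71.9 in replicate 2, a mean of 73.8 ± 2.69. Mbnl2 thus lay above Mbnl1 in each animal, by 0.36 and 0.20 on the log2 scale of TPM + 0.1. The read-based tables gave the opposite order, with Mbnl1 at 118 and 114 TPM and Mbnl2 at 92.9 and 74.8, a log2 difference of 0.48 in favour of Mbnl1. The order of these paralogs therefore depended on the quantification. Mbnl1 was the gene of the set with the largest gap, 1.58-fold higher by the read-based tables.

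Rbfox1 and Rbfox2 encode regulators of muscle, heart and brain splicing. Rbfox2 (chr15:77078990-77307004, minus strand) had 44.8 TPM in replicate 1 and 45.0 in replicate 2, a mean of 44.9 ± 0.0919. Rbfox1 extends over 1526 kb at chr16:5885355-7411526 on the plus strand and had 18.4 TPM in replicate 1 and 17.8 in replicate 2, a mean of 18.1 ± 0.410. Rbfox2 was the more abundant paralog in both animals, and the log2 difference of Rbfox1 from Rbfox2 was -1.31 ± 0.04. Rbfox3, the paralog known as the neuronal nuclear antigen NeuN, stayed at 0.03 and 0.07 TPM.

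Celf1 and Celf2 encode proteins that bind GU-rich RNA and are known for their high levels in the embryonic heart. Celf1 (chr2:90940382-91019497, plus strand) had 32.5 TPM in replicate 1 and 29.9 in replicate 2, a mean of 31.2 ± 1.86. Celf2 (chr2:6539694-7509563, minus strand) had 28.0 TPM in replicate 1 and 26.5 in replicate 2, a mean of 27.2 ± 1.07. The animals of the 2 genes did not overlap, but the difference was small, 0.20 ± 0.03 on the log2 scale, and 0.72 ± 0.47 by the read-based tables.

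Ptbp1 (chr10:79854427-79864771, plus strand) encodes the polypyrimidine tract-binding protein, which falls as muscle and neurons differentiate. It had 22.8 TPM in replicate 1 and 16.6 in replicate 2, a mean of 19.7 ± 4.41, the widest spread relative to its mean in the set. The read-based TPM ran the other way, at 19.98 and 22.3, although the ratio of scaled counts given below was above 1 by both quantifications. The read-based TPM also turned the order of the animals for Celf1 (36.0 and 46.5), Rbm24 (86.2 and 87.6) and Rbfox1 (22.0 and 22.5). Ptbp2, a paralog of Ptbp1 known from neurons and testis, had 8.01 and 7.91 TPM, and Ptbp3 had 14.3 and 9.0 TPM. Ptbp1 was the highest of the 3 in both animals, by 1.28 ± 0.31 over Ptbp2 and 0.77 ± 0.14 over Ptbp3 on the log2 scale.

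**Figure D1:**
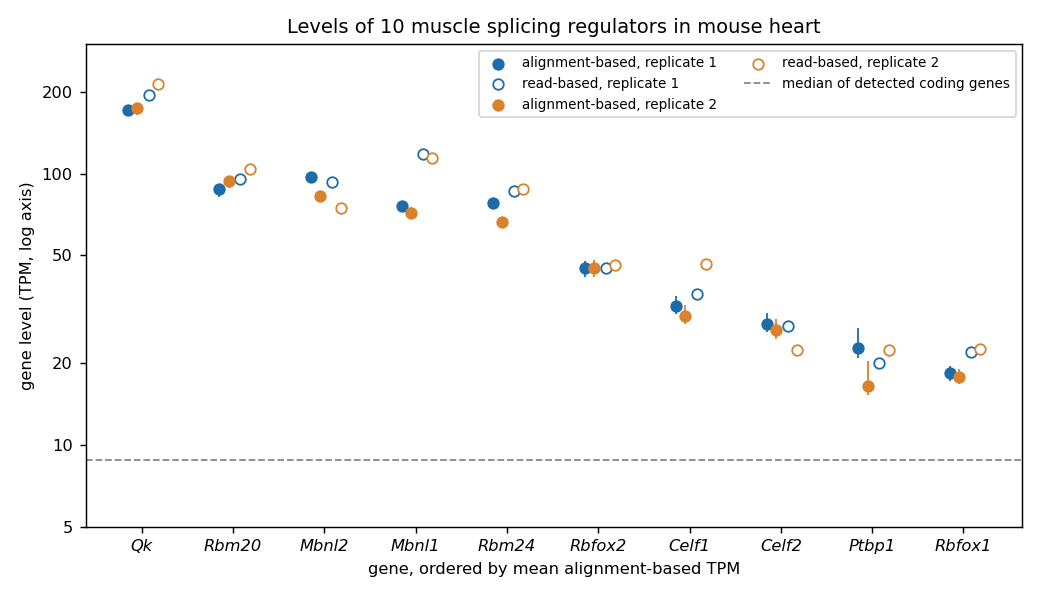
Level of each regulator in each animal in TPM (log axis), filled points for the alignment-based and open points for the read-based tables, with the deposited credibility bounds as vertical lines on the filled points and the median of detected coding genes dashed. Qk stands apart at 172 and 174 TPM, all genes lie above the dashed line at 8.83 TPM, and Mbnl1 shows the widest gap between the quantifications.

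In the order from Qk down to Rbfox1, 6 of 9 neighbouring pairs were separated, meaning that both animals of the higher gene exceeded both animals of the lower. The pairs that overlapped were Rbm20 with Mbnl2, Mbnl1 with Rbm24, and Ptbp1 with Rbfox1. By the read-based tables Mbnl1 lay above Rbm20 in both animals and Celf1 overlapped Rbfox2. Ptbp1 then had the lowest mean, at 21.2 TPM against 22.3 for Rbfox1. TPM is a share of all RNA in the library; counted over nuclear protein-coding genes alone, every level was 2.56- to 2.57-fold higher and the order was the same.

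The levels of the 10 genes were close between the animals. As ratios of counts scaled with TMM factors (trimmed mean of M values), replicate 1 over replicate 2, they ran from 0.869 for Rbm20 to 1.23 for Ptbp1. None reached 1.5-fold in either direction (0 of 10), beside 9.77% of the 15850 genes tested, those averaging 10 counts or more. That share is no fair measure for these genes, because the spread between the animals depends on the count: the median absolute log2 ratio was 0.14 over those genes and 0.08 over the 4477 genes with at least 1000 counts, a class that holds all 10.

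Rbm20 had 10552 counts in replicate 1 and 11763 in replicate 2, a ratio of 0.869 with an exact 95% binomial interval of 0.846 to 0.892. Qk had 24184 and 26051 counts and a ratio of 0.899 (0.883 to 0.915). The log2 ratios of Rbm20 and Qk were -0.20 and -0.15 with TMM, and only -0.095 and -0.046 with spike-in scaling. Both were thus lower in replicate 1, where all 5 cardiomyocyte markers were also lower (4 of 5 with spike-in scaling, Actc1 then being higher). Their part in these ratios was not tested.

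Ptbp1 had 1280 counts in replicate 1 and 1004 in replicate 2, a ratio of 1.23 (1.14 to 1.34), and of 1.22 by the read-based counts. Mbnl2 had 8311 and 7274 counts and a ratio of 1.11 (1.07 to 1.14), and Rbm24 had a ratio of 1.09 (1.06 to 1.13). These genes were higher in replicate 1, as were 4 of 4 smooth muscle, 3 of 3 fibroblast, 3 of 3 endothelial and 3 of 3 macrophage markers. The part of those cells in these ratios was not tested.

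Rbfox2 was at 0.910 (0.875 to 0.947), Mbnl1 at 0.964 (0.935 to 0.993) and Celf2 at 1.06 (1.00 to 1.12). The intervals of Celf1, at 0.986 (0.945 to 1.03), and Rbfox1, at 0.966 (0.895 to 1.04), included 1. In all, 8 intervals excluded 1. The intervals cover counting error alone, treat reads as independent molecules and say nothing of the spread between animals in general. No such share over all genes is at hand, and intervals are narrow at counts this high, so the 8 is not read further. Scaling to the ERCC spike-ins moved the median of all genes by 0.11 on the log2 scale, which turned the direction of Rbfox1, Celf1 and Mbnl1 and left 7 of 10 genes higher in replicate 1 in place of 4. Scaling to total counts turned Celf1 alone.

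**Figure D2:**
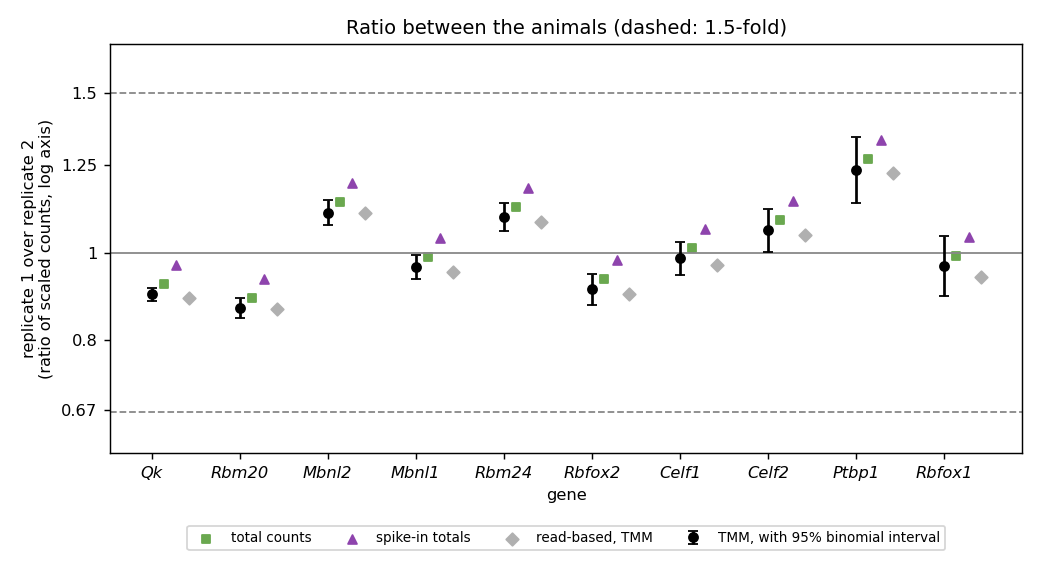
Ratio of scaled counts, replicate 1 over replicate 2 (log axis), for each regulator; black points with 95% binomial intervals are TMM-scaled, squares are scaled to total counts, triangles to spike-ins, and diamonds come from the read-based tables with TMM scaling. Every point lies between the dashed 1.5-fold lines, Ptbp1 is the highest at 1.23 and Rbm20 the lowest at 0.869 with TMM scaling.

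Gene levels hide which transcripts make them up. The deposited tables divide each gene's TPM among its annotated transcripts, as a percent of the gene. Of 103 transcripts of the 10 genes that could be compared, 0 differed by 10 points or more between the animals, beside 12.2% of 54714 transcripts of all genes that reached 1 TPM and have several. By the read-based quantification there were 8 such transcripts: Celf1-201, Celf1-209, Ptbp1-208, Ptbp1-209, Ptbp1-215, Ptbp1-216, Rbm24-201 and Rbm24-203. These are 8 of the 91 that could be compared there, beside 15.4% of 54294 transcripts of all such genes. Neither share is a fair measure for the 10 genes. The background reaches down to 1 TPM, while each of these genes rested on at least 1000 counts per animal. Many of their transcripts also had a share of a few percent, with little room to move 10 points. The leading transcript differed between the animals for 2 of 10 genes, Rbfox1 and Celf1, beside 10.5% of all such genes. It differed between the quantifications for 3 of 10, Rbfox1, Celf2 and Mbnl1, beside 23.8% of all such genes. With 10 genes, neither count is read as apart from its background.

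Rbm20 has 3 annotated transcripts, and each carried a sizeable share. The complete coding transcript Rbm20-203 (1199 codons) made up 40.5 and 39.5% of the gene. Rbm20-201, annotated as a target of nonsense-mediated decay, the pathway that removes RNA with an early stop codon, made up 33.7 and 35.3%. The remaining 25.8 and 25.2% went to Rbm20-202, an incomplete model of 465 bases. The read-based shares of Rbm20-201 were 33.5 and 35.0%, so the animals and the quantifications gave nearly the same picture.

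The decay-type transcript differs from the complete one by a 46-base exon at chr19:53852354-53852399, whose length is not a multiple of 3. Inclusion of an exon is given here as the TPM of transcripts that hold it over the TPM of transcripts that hold or skip it. For this exon it was 45.4% in replicate 1 and 47.2% in replicate 2, and 43.5 and 44.9% by the read-based tables. The value rests on 1 transcript model on each side, and the models also differ elsewhere.

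Most of Rbm24 lay in 1 transcript. Rbm24-201 (236 codons) carried 80.1 and 80.3% of the gene by alignment, and 83.3 and 71.6% by reads. Transcripts with a retained intron carried 18.9 and 15.8% by alignment, but they were not the same ones by both methods. Rbm24-205 had 14.4 and 14.4% by alignment and was listed at 0 in the read-based tables. Rbm24-203 had 4.47 and 1.41% by alignment and 16.7 and 26.8% in the read-based tables.

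By alignment, Rbfox1 divided almost evenly between Rbfox1-203 (417 codons), at 49.8 and 49.2%, and Rbfox1-201 (396 codons), at 49.4 and 49.6%, so the change of leading transcript between the animals is a matter of under 1 point. By reads the split was uneven, with 28.4 and 35.2% for Rbfox1-203 and 55.5 and 52.7% for Rbfox1-201. These transcripts differ, among other things, in the mutually exclusive exons printed above, of which the 40-base form is known as the brain type and the 43-base form as the muscle type; they encode alternative stretches within the C-terminal region of the protein. No annotated transcript of Rbfox1 or Rbfox2 holds both.

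By alignment, the brain-type and muscle-type exons of Rbfox1 were used about equally in these hearts. Transcripts with the 40-base exon made up 50.1% in replicate 1 and 50.3% in replicate 2 of the TPM that covers the site, and those with the 43-base exon 49.9 and 49.7%. The read-based values were 57.3 and 53.7% for the 40-base exon, and 42.7 and 46.3% for the 43-base exon. The read-based animals thus leaned to the brain type, by more than the alignment-based ones.

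Rbfox2 leaned further to the 40-base exon. Its brain-type exon was in 61.7% in replicate 1 and 64.4% in replicate 2, and its muscle-type exon in 34.7 and 31.2%. The remainder, 3.66 and 4.37%, came from transcripts with neither. The read-based tables gave 59.2 and 62.5% for the 40-base exon and 34.9 and 32.1% for the 43-base exon. In both animals and by both quantifications, the 40-base share of Rbfox2 was above that of Rbfox1. The neuron markers summed to 0.21 and 0.49 TPM in these libraries, with none of the 5 detected. No test of the cell type that holds the 40-base exon was made.

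Other exons of Rbfox2 varied less from the full form. A 93-base exon (chr15:77105577-77105669) was included at 75.8 and 77.0%. A 51-base exon (chr15:77231387-77231437) was included at 91.8 and 93.9%, and at 83.3 and 80.9% by the read-based tables. Rbfox2-203 (381 codons) was the leading transcript at 25.99 and 25.4%, with Rbfox2-207 (346 codons, muscle-type exon) at 18.1 and 17.0%. By reads these shares were 38.9 and 40.3%, and 27.8 and 25.4%. A processed transcript of 417 bases, Rbfox2-205, had 22.2 and 22.9% by alignment and was listed at 0 in the read-based tables.

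Mbnl1 has 25 transcripts and spread its TPM over many of them. Mbnl1-201 (381 codons) led with 22.2 and 26.3%, followed by the incomplete Mbnl1-221 with 19.9 and 17.8% and Mbnl1-218 (347 codons) with 13.5 and 12.2% (7.49 and 6.87% by reads). In the read-based tables the incomplete Mbnl1-210, of 576 bases, led with 20.1 and 28.4%, against 3.11 and 2.26% by alignment. It is the only transcript with a 111-base exon (chr3:60596719-60596829), so inclusion of that exon was 3.72 and 2.59% by alignment and 25.9 and 32.1% in the read-based tables, and its use was not settled by these files.

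The 54-base exon of Mbnl1, printed above, is known to direct the protein to the nucleus and to be skipped under the control of MBNL proteins themselves. It was included at 48.0% in replicate 1 and 44.1% in replicate 2, and at 45.5 and 32.4% in the read-based tables. The 36-base exon, known for its effect on contacts between MBNL1 proteins, was included at 46.4 and 49.9%, and at 55.7 and 63.1% in the read-based tables. A 95-base exon (chr3:60622146-60622240) was included at 73.4 and 78.2%, and at 73.2 and 72.5%. Each of these exons was therefore present in a large share of Mbnl1 transcripts and absent from another large share in both animals.

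For Mbnl2 the 54-base exon was where the quantifications parted most. Inclusion was 2.48% in replicate 1 and 2.05% in replicate 2 by alignment, and 33.3 and 42.8% in the read-based tables. The gap rests on Mbnl2-201 (373 codons, with the exon), at 0.74 and 0 TPM by alignment and 23.9 and 26.2 TPM by reads, while Mbnl2-204 (355 codons, without it) had 59.8 and 59.2% of the gene by alignment and 49.3 and 46.6% by reads. The gap between the methods was larger than that between the animals within either. Which of the methods is nearer to the RNA was not tested. Mbnl2 also has a 36-base exon, which stayed at or below 2.38% in every table. Its processed transcript Mbnl2-205 took 36.02 and 37.0% of the gene by alignment, and 19.7 and 14.4% by reads.

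Celf1 was led by Celf1-201 (513 codons) in replicate 1 and by Celf1-206 (486 codons) in replicate 2. Celf1-201 had 32.2 and 28.2% of the gene and Celf1-206 had 28.9 and 36.4%. The deposited credibility bounds of the transcripts overlapped in each animal: in replicate 1 they ran from 7.76 to 11.9 TPM for Celf1-201 and from 6.88 to 11.4 TPM for Celf1-206, and in replicate 2 from 6.04 to 9.81 and from 7.59 to 12.5 TPM. Celf1-204 (483 codons) followed at 17.7 and 17.1%. By reads Celf1-201 had 31.3 and 16.4%, Celf1-206 had 28.2 and 28.4%, and Celf1-204 had 11.8 and 7.43%.

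Celf2 has 28 transcripts, the most in the set. By alignment the short Celf2-203, of 529 bases and 159 codons, led with 27.3 and 34.02%. It was listed at 0 in the read-based tables, where Celf2-206 (526 codons) led with 30.7 and 34.4%, against 16.7 and 14.6% by alignment. Celf2-202 (484 codons) had 10.9 and 9.99% by alignment, and 3.08 and 0.000526% by reads. A 144-base exon (chr2:6549832-6549975) was included at 86.4 and 90.7%, and at 81.7 and 82.3% by reads, so its longer form was the main one by either method. A 41-base exon found in the decay-type Celf2-228 was included at 12.0 and 10.02%, and at 5.73 and 8.95% by reads. That value rests on an incomplete model.

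Ptbp1 transcripts showed the 2 events best known for this gene. Skipping of the 34-base exon printed above shifts the reading frame and yields a decay-type RNA, Ptbp1-201, by which PTBP1 is known to limit its own level. The exon was included at 92.5% in replicate 1 and 83.1% in replicate 2, and at 93.4 and 84.3% in the read-based tables. Inclusion was lower in replicate 2 by both quantifications. The share of Ptbp1-201 was 3.73 and 9.30% of the gene, on 47.9 and 89.7 expected counts, and its credibility bounds overlapped between the animals (0.000882 to 1.56 TPM and 0.509 to 2.34 TPM).

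The 78-base exon of Ptbp1, known to tune its repressor activity, was included at 55.1 and 51.1% by alignment and at 81.6 and 74.0% by reads. The main carrier was Ptbp1-216 (555 codons), with 25.3 and 27.5% of the gene by alignment and 58.7 and 39.1% by reads. The form without it, Ptbp1-202 (489 codons), had 18.5 and 14.9% by alignment, and 7.89 and 5.10% by reads. Ptbp1-209, an incomplete model of 375 bases, took another 25.2 and 26.2% by alignment, and 9.82 and 22.8% by reads. The exon was in the majority of transcripts that cover it in both animals by either method, by a margin that was narrow by alignment.

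Qk makes proteins that share their RNA-binding part and differ in their last residues. Over the complete models annotated as protein coding, Qk-204 (341 codons, the length of the nuclear QKI-5) carried 45.8% in replicate 1 and 47.8% in replicate 2. Qk-206 (319 codons, QKI-6) carried 43.3 and 42.1%, and Qk-201 (325 codons, QKI-7) 10.8 and 10.1%. The means were 46.8 ± 1.39%, 42.7 ± 0.859% and 10.4 ± 0.532%, and the read-based means were 44.1, 39.7 and 16.2%. Over these models QKI-5 and QKI-6 were thus used to similar extents, with QKI-7 the least, in both animals and by both quantifications. The decay-type Qk-202, left out there, has the same 319 codons and stop as Qk-206. With it, transcripts with the QKI-6 reading frame summed to 54.3 and 55.7 TPM, above the 37.7 and 40.8 TPM of QKI-5.

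As a share of all Qk transcripts, the largest was Qk-205, an incomplete model of 650 bases, at 29.6 and 28.2%, and at 31.4 and 33.1% by reads. It alone skips a 117-base exon (chr17:10273947-10274063), so the inclusion of that exon, 66.5 and 68.2%, rests on this model. Over complete models, the exon was in all transcripts that cover its site. Qk-202, annotated as a decay target, had 10.9 and 11.4% of the gene.

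**Figure D3:**
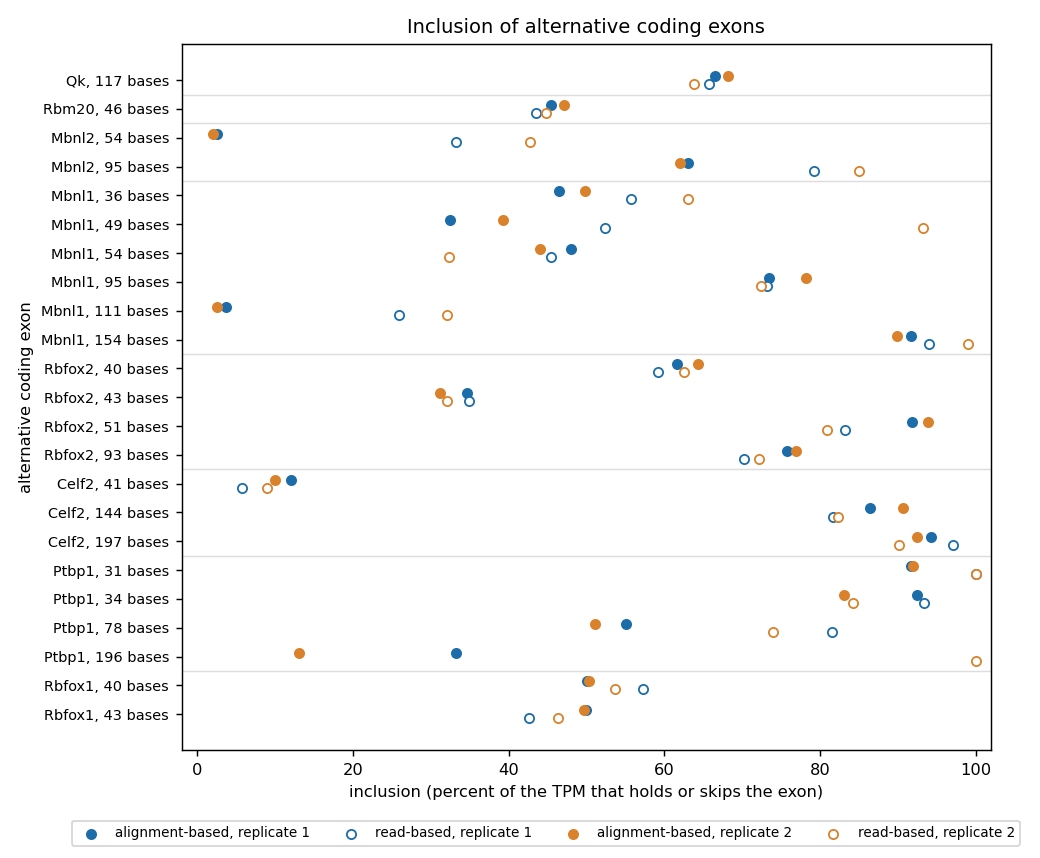
Inclusion of the 23 alternative coding exons, in percent of the TPM that holds or skips the exon, for each animal (colour) by alignment (filled) and by reads (open). The 40-base exon of Rbfox2 lies between 59.2 and 64.4% at all 4 points, while the 54-base exon of Mbnl2 sits near 2% by alignment and at 33.3 and 42.8% by reads.

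Across the set, 42 alternative exons were annotated, and 29 had an inclusion between 5 and 95% in at least 1 animal by at least 1 quantification. Of these, 23 held coding sequence, 9 with a length that is a multiple of 3 and 14 without. Inclusion differed by less than 10 points between the animals for 28 of the 29, with a median difference of 2.03 points by alignment. The exception was the 196-base exon of Ptbp1 (chr10:79856339-79856534), at 33.2 and 13.0%, on 2.44 and 1.38 TPM; by reads it had no value in replicate 1 and was at 100% in replicate 2. By reads 24 of the exons differed by less than 10 points between the animals, with a median of 3.64. The Celf1 152-base (39.9 and 25.4%), Mbnl1 54-base, Mbnl1 49-base (52.4 and 93.3%) and Ptbp1 117-base exons (11.5 and 0%) differed by more. Between the quantifications, 8 of the 28 exons measured by both differed by 10 points or more, with a median of 5.72. The median gap between methods was thus larger than that between animals by either method. No share over the exons of all genes is at hand, so these exon counts are not read as particular to the 10 genes. No junction reads were analysed here.

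Transcript classes also set the genes apart from one another. Protein-coding models carried a median of 78.1% of TPM over the 10 genes, beside 92.4% over 10069 coding genes with several transcripts. Rbfox1 was coding throughout, at 100% in both animals. By alignment, Rbm20 at 66.3 and 64.7% and Mbnl2 at 61.3 and 60.8% were the lowest of the set. By reads Rbm20 was again low, at 65.7% on average, but Mbnl2 was at 80.2%, above Celf1 at 74.4%, Qk at 76.3% and Rbm24 at 77.5%. Decay-type transcripts had the largest share in Rbm20 (33.7 and 35.3%), and the next in Qk (10.9 and 11.4%). Celf2 (7.81 and 6.22%) and Ptbp1 (3.73 and 9.30%) changed places between the animals, and the other 6 genes had none above 0. Incomplete models took 59.5 and 60.5% of Rbm20, in which Rbm20-201 is counted too, and 34.3 and 34.3% of Rbfox2.

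**Figure D4:**
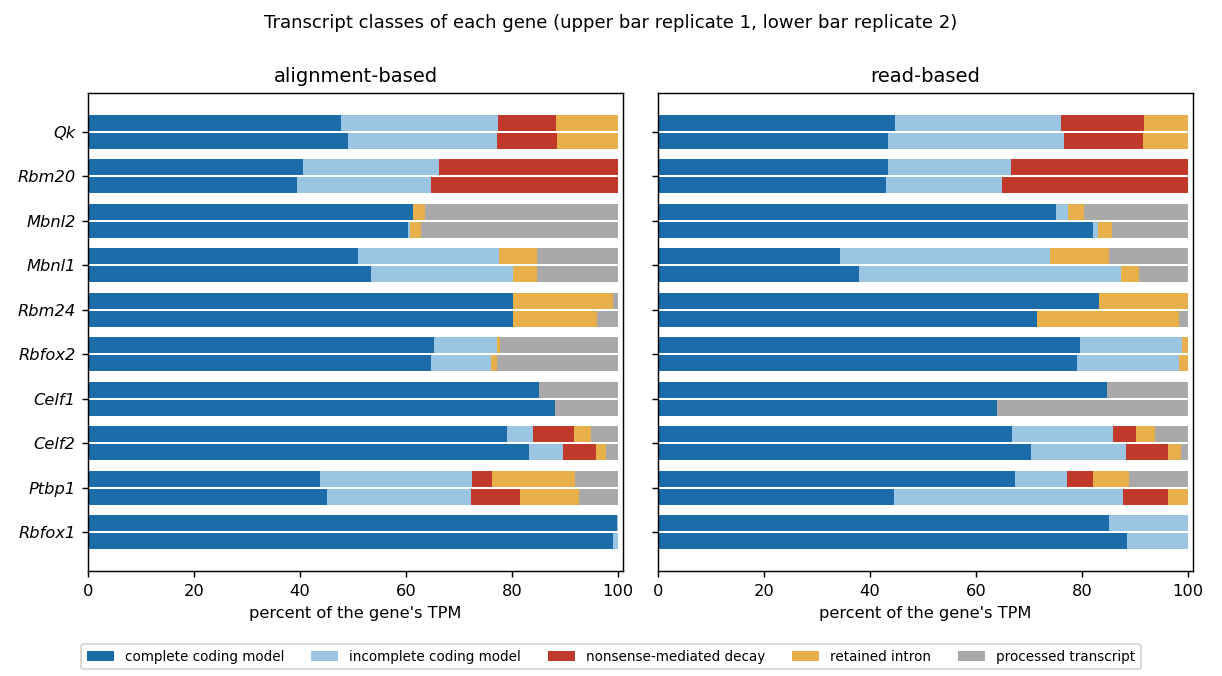
Share of each gene's TPM by transcript class, in percent, with replicate 1 as the upper and replicate 2 as the lower bar of each gene, by alignment (left) and by reads (right). Rbm20 shows the largest decay-type share (33.7 and 35.3%) and Rbfox1 is almost all complete coding models by alignment.

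Other splicing regulators give a scale for these levels. Of 36 further regulators 21 were detected at 1 TPM in both animals (58.3%, beside 49.8% of 22015 nuclear coding genes). The median over all 36, undetected ones included, was 3.83 ± 0.0919 TPM, beside 1.13 TPM over all nuclear coding genes. None of the 26 tested reached 1.5-fold between the animals, beside 9.77% of 15850 genes. That share depends on the count, so the 0 is not read as apart from it. The highest were Rbpms, a regulator of smooth muscle and heart splicing, at 92.1 and 88.0 TPM, Rbm38, the paralog of Rbm24, at 85.7 and 69.4 TPM, and Fxr1, a striated muscle RNA-binding protein, at 73.8 and 67.5 TPM. Rbm24 and Rbm38 were close, with a log2 difference of -0.10 ± 0.05 for Rbm24 over Rbm38 and 0.078 ± 0.23 by the read-based tables, so their order was not settled.

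The 15 regulators below detection were Celf3, Celf4, Celf5, Celf6, Elavl2, Elavl3, Elavl4, Rbfox3, Nova1, Khdrbs2, Srrm3, Esrp1, Esrp2, Mbnl3 and Raver2. Nova1 and the Elavl genes among them are known from neurons, and Esrp1 and Esrp2 from epithelia. Other regulators known from neurons were detected, Srrm4 at 3.07 and 4.35 TPM and Nova2 at 2.53 and 1.76 TPM. Paralogs of the muscle regulators could thus be far lower: Mbnl2 exceeded Mbnl3 by 7.36 ± 0.19 and Rbfox1 exceeded Rbfox3 by 6.93 ± 0.31 on the log2 scale of TPM + 0.1, which understates the difference at such low levels.

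**Figure D5:**
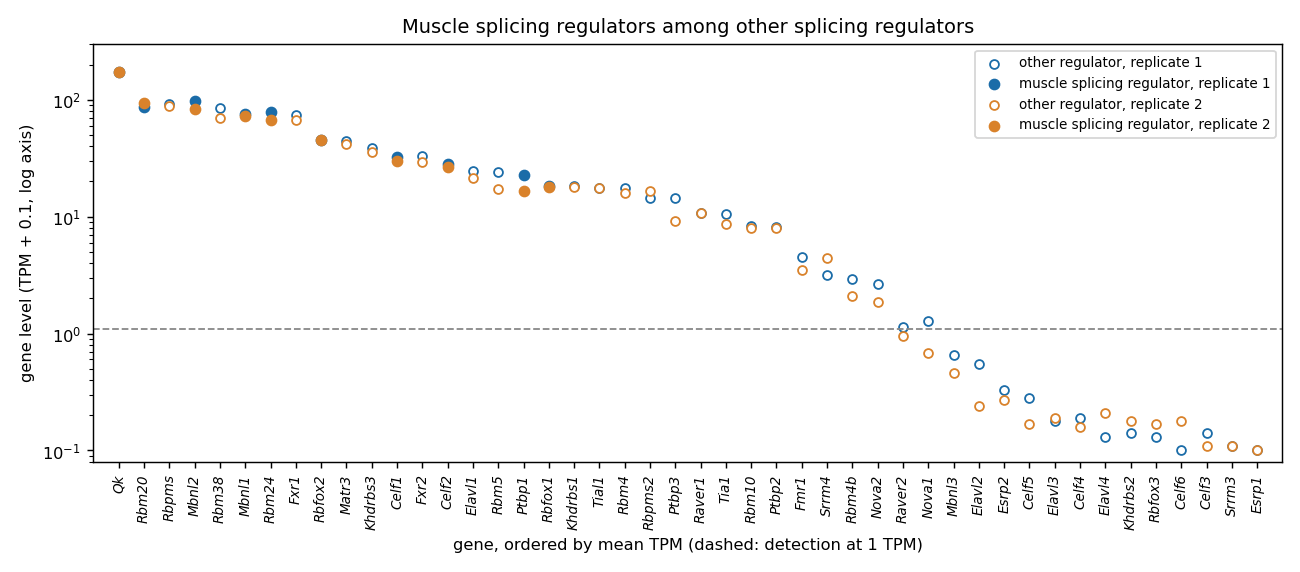
Level of each splicing regulator in each animal, as TPM + 0.1 on a log axis and ordered by mean, with the 10 muscle splicing regulators filled and the 36 others open; the dashed line marks 1 TPM. The filled points lie in the upper part of the range, by mean from Qk (172 and 174 TPM) to Rbfox1 (18.4 and 17.8 TPM). The lowest single point is Ptbp1 in replicate 2, at 16.6 TPM.

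The genes that these proteins are known to splice, in heart or in other tissues, were largely present. Detection covered 23 of 25 such genes. The list median of 71.5 ± 3.22 TPM stood beside 1.13 TPM over all nuclear coding genes, undetected ones included, and 8.83 TPM over the detected ones. The list was picked from textbook knowledge and includes abundant sarcomere genes, so its median is no measure of targets at large. The highest were Tpm1, the tropomyosin target of PTBP1, at 4992 and 5036 TPM, Tnnt2, the cardiac troponin T target of CELF and MBNL proteins, at 3375 and 3455 TPM, and Ttn, the titin target of RBM20, at 1202 and 1092 TPM. Tnnt3 and Atp2a1, targets in fast skeletal muscle, were below 1 TPM. None of the 24 tested reached 1.5-fold between the animals, beside 9.77% of 15850 genes, a share that depends on the count. These are gene levels and say nothing of how the targets were spliced.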

How the data were processed

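Total RNA of 2 hearts (1 group) was quantified in 3 deposited tables per library, on mm10 with GENCODE M21 per the deposited listings; the tools are not given in these sources. Expected counts and estimated counts were deposited without normalization, per the file headers. TPM values were also deposited, and the authors scaled them over all entries together. Score columns hold the bounds of a credibility interval on TPM, deposited without a stated level. The percent column was deposited by the authors as each transcript's share of its gene. Alleles of the hybrid were not separated.

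The members and lists were chosen with earlier results of these data known. Read-based transcripts were summed to genes, and read-based percents were computed from their TPM. Spike-ins and other entries outside genes were left out of gene totals (0.518 and 0.544% of counts). Counts were scaled with TMM in edgeR 4.0.16 (R 4.3.3), with DESeq2 1.42.0 size factors as an alternative. Genes averaging 10 counts or more entered the ratios, with exact 95% binomial intervals on rounded counts. Paralogs were compared as log2(TPM + 0.1). An exon was alternative where it is internal to 1 transcript and inside an intron of another of the same gene. Only exons of at most 300 bases were counted. Named were all members, the 3 highest and all undetected genes of each list, paralog pairs, the 3 leading transcripts of each member and any that led or differed in a single table. Further exons and transcripts were named after their values were seen. On simulated counts of 15854 genes, 200 of 200 genes changed 3-fold and 657 of 15654 unchanged genes passed 1.5-fold. Intervals held the true ratio for 96.2% of a random sample of the unchanged genes. The simulation held counting error alone, the setting for which the intervals are made, and no spread between animals. Other steps used Python 3.11.15, numpy 2.4.6, pandas 2.3.3, scipy 1.17.1 and matplotlib 3.10.9. No test between conditions was possible, since with 2 animals an exact sign-flip test has a smallest p of 0.5.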

Additional observations from a re-analysis of the deposited data

How the results depend on the processing

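Of 393 single values recomputed under another setting, 262 moved by less than their error and 129 by more. The error was the SD over the animals, or the counting error of the binomial interval for ratios between the animals. The 262 include 78 without replicate 1 and 78 without replicate 2, which cannot do otherwise with 2 animals. Ratios between the animals that turned with the scaling, given above, are counted in these numbers by size of move alone. The other 2 values were paralog differences that turned their direction by the read-based tables. Mbnl1 lay above Mbnl2 (0.48) and Rbm24 above Rbm38 (0.078) on the log2 scale. The cause was not tested. Read-based, the median level of the 10 genes was 63.1 TPM; over nuclear coding genes alone it was 149, since that total is smaller. Genes at or above 1.5-fold between the animals numbered 231 at a mean count of at least 100 and 8363 with no filter on counts, each out of another number of genes tested. With the filter unchanged, 2966 reached 1.3-fold and 515 reached 2-fold, against 1548 of 15850 at 1.5-fold. The members at or above the ratio stayed at 0 in each case. With 10 genes of high counts, this is not read as apart from the background. Transcripts of the members that differed between the animals numbered 8 of 91 by the read-based tables, beside 15.4% of all, and 4 at 5 points, against 0. No share over all transcripts is at hand for 5 points, so that count is not read further. Exons with a mean inclusion between 5 and 95% numbered 14 over coding transcripts only, against 26, since exons that are held or skipped only by noncoding or decay-type transcripts then go to 0 or 100%. The added setting with complete transcript models only, chosen after seeing the data, set the Rbm20 46-base exon to 0% and the Qk 117-base exon to 100%, since the model on 1 side is incomplete. Leaving out either animal gives the other's value, printed beside each mean. No paired analysis was possible because there is 1 group.

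The files hold no junction counts, so exon inclusion rests on how each quantification divided shared reads among the annotated transcripts. With 2 animals, the SD is itself poorly known.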
